A study of Homo sapiens with 9 samples.

Results

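The kinetochore and spindle checkpoint genes described here are 39 genes that encode the structure joining centromeres to spindle microtubules and the signalling proteins that watch over that joint. They were taken as a fixed list of symbols, matched through GENCODE release 29 to the Ensembl identifiers of the count table with the version dropped, and all 39 were present among 26186 genes. No expression value entered the list itself, although it was drawn up with earlier results of these data known. The libraries come from MCF10A, a non-tumorigenic human mammary epithelial cell line, infected with lentivirus carrying a short hairpin RNA in the pLKO.1 vector. Hairpins shCHAF1B-1 and shCHAF1B-2 target CHAF1B, the middle subunit of the histone chaperone CAF-1, which places new H3-H4 histones on replicating DNA, and shGFP is the control hairpin. In all groups puromycin at 2 µg/mL was added 24 hours after transduction and polyadenylated RNA was prepared from cells taken 3 days after infection. Each hairpin has 3 libraries, and the labels do not say whether these came from separate infections or cultures, so p-values measure the spread between libraries, which may be technical.

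Each library held between 24339914 and 31819468 counts. Levels are given as CPM, a gene's share of its library's counts after TMM scaling, and 16235 genes, all 39 kinetochore genes among them, had enough counts to be tested. Tests are edgeR quasi-likelihood tests with Benjamini-Hochberg adjustment over those genes, and a gene is said to have risen or fallen at an adjusted p under 0.05. CHAF1B had 2.56, 3.88 and 3.43 CPM in shCHAF1B-1 libraries and 2.66, 3.89 and 3.07 CPM in shCHAF1B-2 libraries, against 35.2, 41.0 and 36.8 CPM in shGFP libraries, which leaves 8.82% and 8.54% of the shGFP level. All 12 mammary epithelial markers were detected, with a summed level of 16659 to 18027 CPM in shCHAF1B-1, 16326 to 16865 CPM in shCHAF1B-2 and 12832 to 13881 CPM in shGFP. The third shCHAF1B-1 library stood apart: 11 B lymphocyte markers summed to 242 CPM there and to between 1.61 and 4.71 CPM in the other libraries, and the leukocyte gene PTPRC had 31.3 CPM there and at most 0.246 CPM elsewhere. Counts that lead the comparisons are therefore given with and without that library. Summed myeloid markers (6 of 7 detected) were at 44.7 to 45.7, 41.1 to 43 and 29.1 to 32.9 CPM in shCHAF1B-1, shCHAF1B-2 and shGFP. Fibroblast markers (5 of 7) summed to 12.6 to 15.5 CPM in the knockdown libraries and 8 to 8.42 CPM in shGFP, endothelial markers (4 of 5) to 9.27 to 11.1 CPM in the knockdown libraries and 2.72 to 3.54 CPM in shGFP, and the single T lymphocyte marker in the table (of 7) was at 0.163 CPM or less in every library. The myeloid difference lay mainly in CD14, with 566 to 782 raw counts in the knockdown libraries and 342 to 407 in shGFP. The fibroblast difference lay mainly in COL1A1 (292 to 469 raw counts against 202 to 217). The endothelial difference lay mainly in PECAM1 (209 to 247 raw counts against 53 to 85). The part of any other cell type in the results was not tested.

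A kinetochore assembles in layers on nucleosomes that carry the histone variant CENP-A. The constitutive centromere-associated network (CCAN) binds this chromatin through the cell cycle, and in mitosis the KNL1, MIS12 and NDC80 complexes join it to microtubules, with the SKA complex stabilising the attachment. Unattached kinetochores recruit the RZZ complex, the corona proteins and the spindle checkpoint proteins, which hold back CDC20 and the anaphase-promoting complex until every chromosome is attached. Many of these genes are transcribed mainly in G2 and mitosis, so their level in bulk RNA also follows the share of dividing cells; fewer cells in those stages and less RNA per cell cannot be told apart in these libraries.

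Most of the kinetochore genes were lower after CHAF1B knockdown, by a modest amount. With shCHAF1B-1, 32 of 39 fell and 2 rose (CENPT and MAD1L1), where 25.2% of all tested genes fell and 27.9% rose (53.2% in either direction). With shCHAF1B-2, 30 fell and 1 rose (MIS12), against 24.6% and 26.7% of all tested genes (51.3% in either direction). The same direction passed in both hairpins for 30 members, all lower (76.9% of the list, against 20.8% of all tested genes), and 0 members rose in both (23.8% of all tested genes). Without shCHAF1B-2 replicate 3, 2 rose with shCHAF1B-2 and 2 in both; without shCHAF1B-1 replicate 1 or shGFP replicate 3, 1 rose in both. For the mean of both hairpins, 32 members fell (82.1%, against 27.7% of all tested genes), 2 rose (CENPT and MIS12; 29.2% of all tested genes, and 56.9% in either direction) and 5 did not pass: CENPN, NUF2, PMF1, MAD1L1 and SKA2. The median log2 fold change of the members was -0.47 for shCHAF1B-1 and -0.35 for shCHAF1B-2, beside -0.003 and -0.01 for all tested genes. Both hairpins are compared with the same 3 shGFP libraries, so the comparisons are not independent of each other.

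The shift was shared across the list rather than carried by a few genes. Summed over the 39 genes, the level was 1491, 1571 and 1592 CPM in shCHAF1B-1 and 1623, 1640 and 1649 CPM in shCHAF1B-2, against 2050, 2013 and 2141 CPM in shGFP. For 30 members all 6 knockdown libraries lay below all 3 shGFP libraries, which held for 22.7% of all tested genes, and these were the 30 that fell with both hairpins. They kept between 55.1% and 88.5% of their shGFP level. For the mean of both hairpins, 8 of the 39 members fell by at least 1.5-fold, where 7.74% of all tested genes did. These members were CENPP, CENPW, ZWINT, KNTC1, TTK, MAD2L1, SKA1 and SKA3. The 9 members outside the group of 30 were CENPN, CENPT, NUF2, MIS12, PMF1, NSL1, ZW10, MAD1L1 and SKA2. Without the third shCHAF1B-1 library, 32 members fell with shCHAF1B-1, 28 with shCHAF1B-2 and 28 with both, and 32 fell and 3 rose for the mean.

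**Figure D1:**
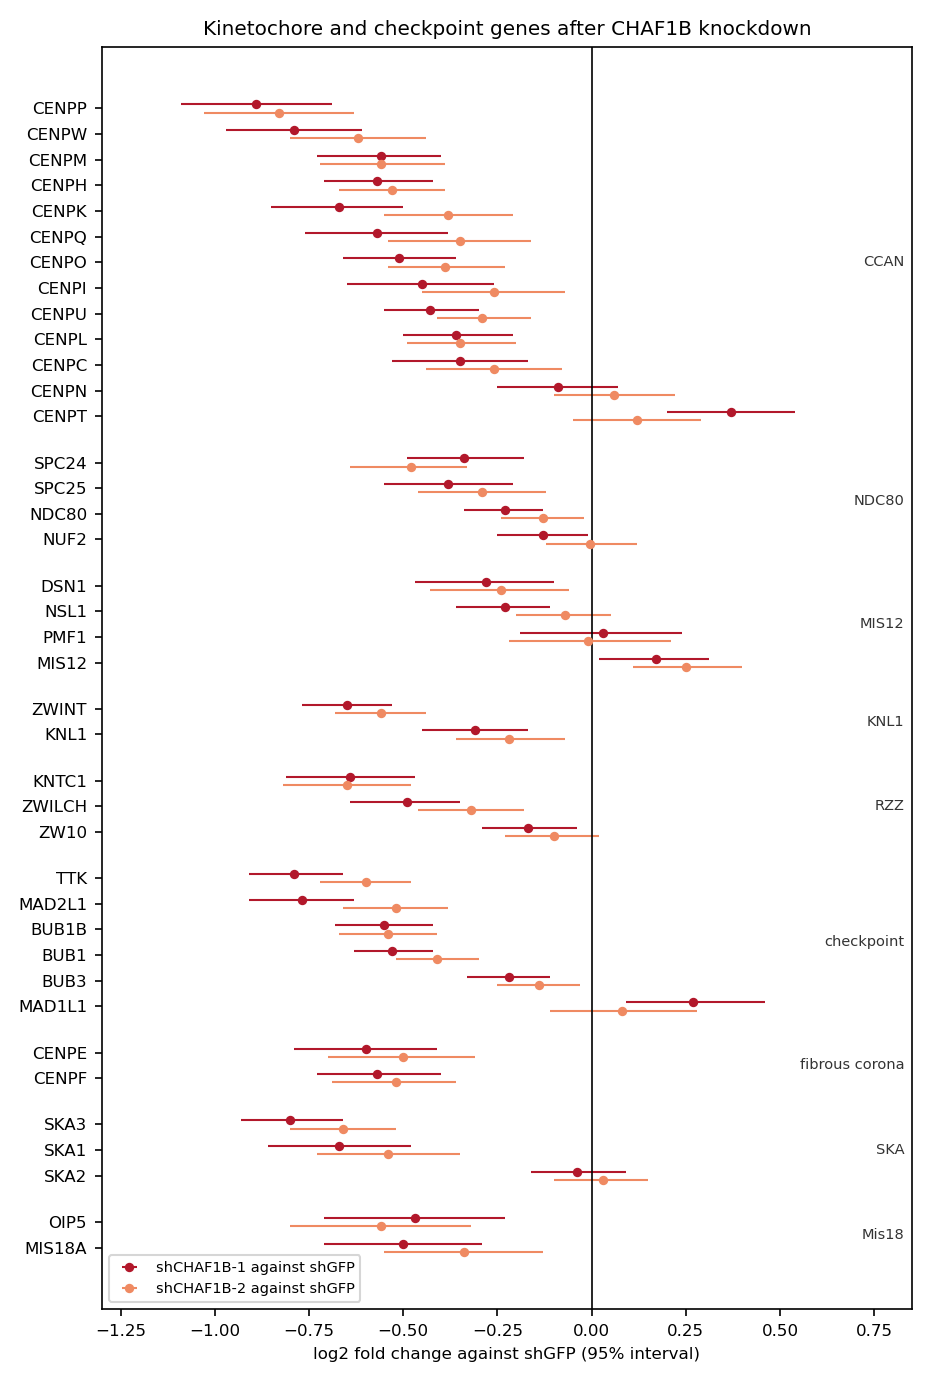
Log2 fold change of each of the 39 genes against shGFP, by complex, for shCHAF1B-1 and shCHAF1B-2; 32 and 30 of the genes fell, and the few genes at or above 0 belong to the CCAN, the MIS12 complex, the checkpoint and the SKA complex.

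**Figure D2:**
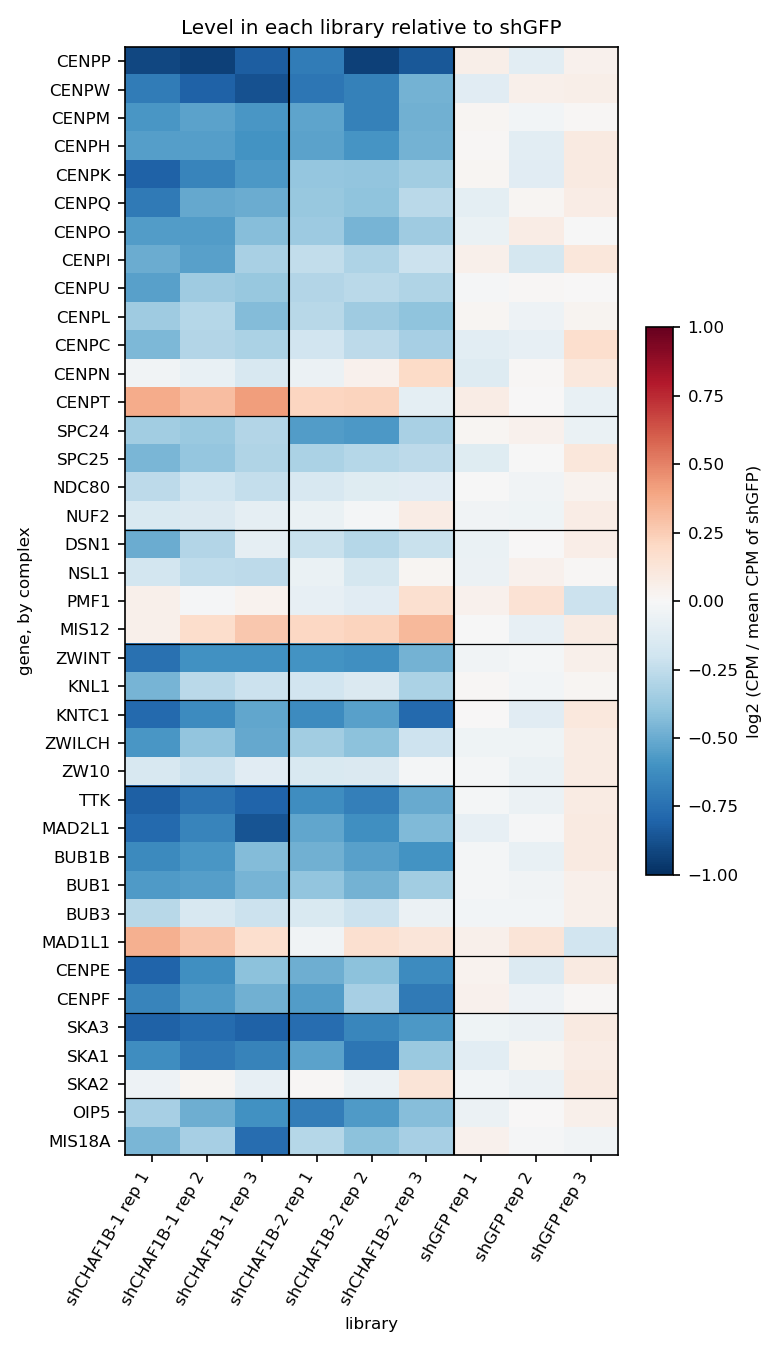
Log2 ratio of each gene to its shGFP mean in the 9 libraries, knockdown libraries first; the median over the 39 genes lies between -0.50 and -0.33 in the 6 knockdown libraries and between -0.03 and 0.06 in the shGFP libraries.

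Promoter sequence is one feature the list was not chosen on. RefSeq windows on GRCh38.p14, 250 bases before to 50 after the start, were matched for 31 of 39 members. They were not matched for BUB3, CENPH, CENPL, CENPM, KNL1, KNTC1, MIS18A and TTK. Where a gene had several windows, as 3 members did, only the most upstream start was used and the others were not searched. A CHR word (TTTGAA or TTCGAA on either strand), the element through which the DREAM and MuvB complexes act on late cell cycle genes, was found in 16 of the 31 windows (51.6%), against 11.2% of 10535 tested genes and 16.7% of 27305 windows in all. CCAAT, the NF-Y element, was found in 18 (58.1%, against 36.6% of tested genes and 35.7% of all windows), and an E2F word in 12 (38.7%, against 20.6% and 13.0%). The E2F words searched, on both strands, were TTCCCGC together with TTGGCGC and, besides them, TTCGCGC together with TTGCCGC. Some of these words can overlap, since CCAAT read from the other strand is ATTGG, which shares letters with the second of the E2F words. The members with a CHR word had a median log2 fold change of -0.49 and those without one -0.36, for the mean of both hairpins and with no test. For CCAAT the medians were -0.41 with and -0.36 without. For an E2F word they went the other way, -0.35 with and -0.41 without. A match describes letters in a window, not a bound site.

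The promoters of the members with the lowest and the highest log2 fold change among those with a CHR word (SKA3, CENPN) and those without one (CENPP, CENPT) are shown because these members span the range of change on either side. Each runs 5′ to 3′ on the gene's strand, from 150 bases before to 30 after the start, and capitals mark the motif words on either strand. SKA3 lies at chr13:21176523-21176702 (minus strand), CENPN at chr16:81007064-81007243 (plus strand), CENPP at chr9:92325318-92325497 (plus strand) and CENPT at chr16:67847664-67847843 (minus strand).
SKA3: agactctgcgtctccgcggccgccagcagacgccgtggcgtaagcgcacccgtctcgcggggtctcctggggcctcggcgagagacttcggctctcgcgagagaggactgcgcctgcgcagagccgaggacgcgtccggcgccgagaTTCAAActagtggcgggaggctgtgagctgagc
CENPN: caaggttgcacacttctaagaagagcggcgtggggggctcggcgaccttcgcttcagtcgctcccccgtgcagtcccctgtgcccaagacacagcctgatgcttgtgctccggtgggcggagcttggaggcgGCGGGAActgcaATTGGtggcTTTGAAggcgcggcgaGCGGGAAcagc
CENPP: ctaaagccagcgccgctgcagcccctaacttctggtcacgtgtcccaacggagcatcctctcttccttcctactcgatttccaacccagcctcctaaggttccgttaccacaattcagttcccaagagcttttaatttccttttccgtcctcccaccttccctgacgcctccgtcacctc
CENPT: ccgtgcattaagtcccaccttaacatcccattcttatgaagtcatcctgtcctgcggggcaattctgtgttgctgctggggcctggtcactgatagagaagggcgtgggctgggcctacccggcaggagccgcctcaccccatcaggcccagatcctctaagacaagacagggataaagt
SKA3 has 1 CHR word, read on the opposite strand, across its start, and its log2 fold change was -0.73. CENPN has a CHR word, a CCAAT and a pair of E2F words close to its start, and its log2 fold change was -0.02. CENPP, at -0.86, and CENPT, at 0.24, have none of the words in their windows.

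**Figure D3:**
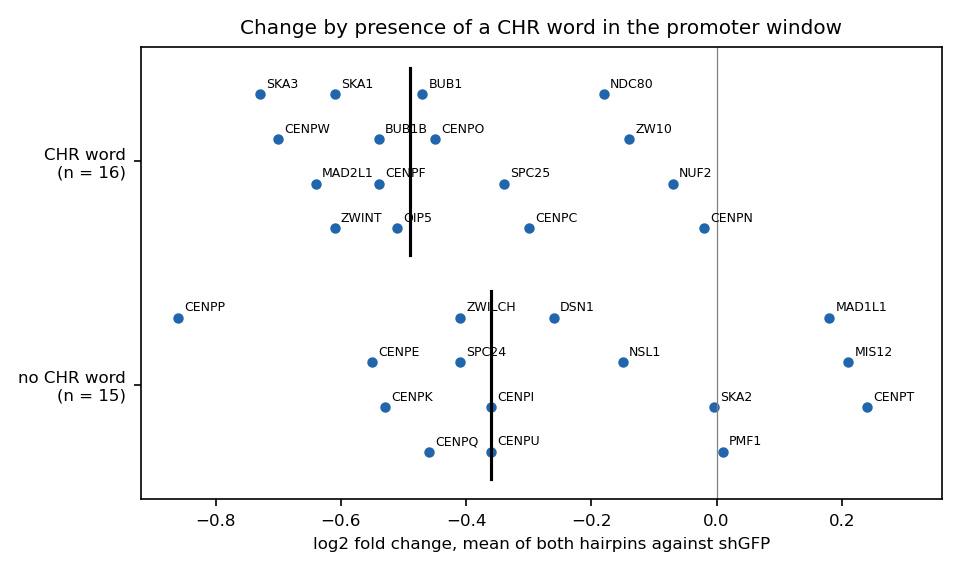
Log2 fold change (mean of both hairpins against shGFP) of the 31 genes with a matched promoter window, split by whether the window holds a CHR word; lines mark the medians, -0.49 with the word and -0.36 without it, and the groups overlap over most of their range.

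Of the 13 CCAN genes, 11 fell and 1 rose for the mean of both hairpins, with a median of -0.45. CENPP, a subunit of the CENP-O group of the CCAN (chr9:92325484-92620533, plus strand, GRCh38), moved most. It had 5.69, 5.58 and 6.03 CPM in shCHAF1B-1 and 6.57, 5.61 and 5.93 CPM in shCHAF1B-2, against 11.1, 9.96 and 11.0 CPM in shGFP. Every knockdown library was far below every shGFP library, and the log2 fold change was -0.89 for shCHAF1B-1 and -0.83 for shCHAF1B-2 (SE 0.0928 and 0.0933; adjusted p 2.7e-06 and 6.3e-06 by edgeR). Exons of other genes, on the opposite strand for IPPK and NOL8, cover 42.7% of CENPP's exon bases, and the library kit does not mark strand, so its reads cannot be told apart from theirs there. CENPW, which pairs with CENP-T in a histone-like fold that contacts DNA, had 15.7, 14.5 and 13.9 CPM in shCHAF1B-1 and 15.4, 15.9 and 18.3 CPM in shCHAF1B-2, against 23.5, 26.3 and 26.5 CPM in shGFP. Its groups did not overlap either, and its log2 fold change was -0.70 for the mean of both hairpins (SE 0.0692, adjusted p 1.2e-06).

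CENPT, the partner of CENP-W and a direct receptor of the NDC80 complex (chr16:67828157-67847811, minus strand), went the other way. It had 43.8, 42.0 and 45.3 CPM in shCHAF1B-1 and 39.4, 39.6 and 31.6 CPM in shCHAF1B-2, against 35.6, 33.9 and 32.2 CPM in shGFP. All 3 shCHAF1B-1 libraries were above shGFP, while the third shCHAF1B-2 library was just under the lowest of them. CENPT rose with shCHAF1B-1 (log2 fold change 0.37, SE 0.0785, adjusted p 0.00136) and did not pass with shCHAF1B-2 (0.12, SE 0.0796, adjusted p 0.221); without the third shCHAF1B-2 library the shCHAF1B-2 value was 0.22 and passed (adjusted p 0.0075). Exons of neighbouring genes cover 19.6% of its exon bases. CENPN, which reads CENP-A nucleosomes, had 32.6, 31.7 and 29.9 CPM in shCHAF1B-1 and 32.1, 34.5 and 38.1 CPM in shCHAF1B-2, against 30.6, 33.6 and 36.0 CPM in shGFP. Its groups overlapped and neither hairpin's test passed (adjusted p 0.322 and 0.528), with 22.8% of its exon bases shared with other genes.

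The other 9 CCAN genes all fell with both hairpins. In the CENP-H/I/K/M group, which links inner and outer kinetochore, the log2 fold change for the mean of both hairpins was -0.55 for CENPH, -0.36 for CENPI, -0.53 for CENPK and -0.56 for CENPM. CENPC, the scaffold that ties CENP-A chromatin to the MIS12 complex, was among the least reduced at -0.30 (SE 0.0703, adjusted p 0.00212), and CENPL, the partner of CENP-N, was at -0.35. CENPO, CENPQ and CENPU, which with CENP-P form the group that recruits the kinase PLK1, were at -0.45, -0.46 and -0.36. Exon overlap reached 31.4% of exon bases for CENPO and 11.7% for CENPU.

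Of the NDC80 complex, the main microtubule binder, 3 of 4 subunits fell for the mean of both hairpins (median -0.26). SPC24, in the dimer that faces the centromere, had 20.6, 20.2 and 21.4 CPM in shCHAF1B-1 and 17.8, 17.6 and 20.9 CPM in shCHAF1B-2, against 26.5, 27.0 and 25.0 CPM in shGFP, and its log2 fold change was -0.41 for the mean of both hairpins (SE 0.0615, adjusted p 6.6e-05). Every knockdown library was below shGFP. NUF2, in the microtubule-binding dimer, had 34.4, 34.7 and 36.0 CPM in shCHAF1B-1 and 36.6, 37.7 and 40.2 CPM in shCHAF1B-2, against 37.4, 37.2 and 40.2 CPM in shGFP. Its shCHAF1B-1 libraries were below shGFP and its shCHAF1B-2 libraries overlapped shGFP, and neither test passed (adjusted p 0.0719 and 0.967). NDC80 and SPC25 fell, with values of -0.18 and -0.34. With shCHAF1B-2, NDC80 passed close to the threshold (adjusted p 0.0424 by edgeR).

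The MIS12 complex, the hub that binds CENP-C and CENP-T on the inner side and NDC80 and KNL1 on the outer side, was the class with the smallest shift (median -0.07; 2 of 4 fell and 1 rose). MIS12 (chr17:5486285-5490814, plus strand) had 29.4, 32.2 and 34.2 CPM in shCHAF1B-1 and 32.9, 33.2 and 35.6 CPM in shCHAF1B-2, against 28.4, 26.8 and 30.1 CPM in shGFP. The shCHAF1B-2 libraries were above shGFP and the first shCHAF1B-1 library was within it. Exons of DERL2, on the opposite strand, cover 9.53% of the exon bases of MIS12. MIS12 rose with shCHAF1B-2 (0.25, adjusted p 0.00699) and for the mean of both hairpins (0.21, SE 0.059, adjusted p 0.00785), and missed the threshold with shCHAF1B-1 (0.17, adjusted p 0.0517); without the first shCHAF1B-1 library that value was 0.22 and passed (adjusted p 0.0155), and it also passed without shCHAF1B-2 replicate 3 or shGFP replicate 3 (adjusted p 0.0426 and 0.0307). DSN1 had 19.0, 21.8 and 25.2 CPM in shCHAF1B-1 and 22.9, 22.0 and 23.0 CPM in shCHAF1B-2, against 25.5, 26.8 and 28.0 CPM in shGFP, all lower, with a log2 fold change of -0.26 (SE 0.0725, adjusted p 0.00657). NSL1 fell with shCHAF1B-1 (-0.23, adjusted p 0.00424) and did not pass with shCHAF1B-2 (-0.07, adjusted p 0.326). Its call for the mean of both hairpins (-0.15, adjusted p 0.0191) was lost without shGFP replicate 2 or 3, which leaves DSN1 as the 1 gene of the complex that fell there. PMF1 was at 0.01 (SE 0.0864, adjusted p 0.932), with 23.3% of its exon bases shared with the read-through gene PMF1-BGLAP.

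Both genes of the KNL1 complex, the platform on which the BUB proteins gather, fell. ZWINT, which connects KNL1 to the RZZ complex, had 55.9, 61.6 and 61.5 CPM in shCHAF1B-1 and 61.8, 61.2 and 67.3 CPM in shCHAF1B-2, against 91.4, 92.5 and 97.0 CPM in shGFP. That is 65.7% of the shGFP level with a wide gap between the groups (log2 fold change -0.61, SE 0.0467, adjusted p 1.1e-07). KNL1 itself had 41.4, 47.5 and 49.4 CPM in shCHAF1B-1 and 50.1, 51.9 and 45.9 CPM in shCHAF1B-2, against 57.7, 56.2 and 57.9 CPM in shGFP, below in every library but by less (-0.26, SE 0.057, adjusted p 0.00132). In the RZZ complex, the corona scaffold, KNTC1 (the ROD subunit) had 38.0, 42.0 and 45.4 CPM in shCHAF1B-1 and 42.0, 44.6 and 37.9 CPM in shCHAF1B-2, against 65.1, 60.1 and 70.0 CPM in shGFP. Its log2 fold change was -0.64 (SE 0.0659, adjusted p 1.8e-06), with no overlap between groups. ZWILCH fell by 0.41 on the log2 scale, with 10.9% of its exon bases shared with other genes. ZW10, which also serves in vesicle transport, had 41.9, 40.3 and 43.2 CPM in shCHAF1B-1 and 42.1, 42.4 and 46.1 CPM in shCHAF1B-2, against 46.1, 44.8 and 49.5 CPM in shGFP. Among the 6 knockdown libraries, shCHAF1B-2 replicate 3 alone reached into the shGFP range; it fell with shCHAF1B-1 (-0.17, adjusted p 0.026) and did not pass with shCHAF1B-2 (-0.10, adjusted p 0.148). The shCHAF1B-1 call was lost without shCHAF1B-1 replicate 1 (adjusted p 0.0526) or 2 (0.115), or without shGFP replicate 3 (0.107). The mean-of-both call for ZW10 (-0.14, adjusted p 0.0315) was lost under DESeq2, with no count filter and on leaving out any of 5 libraries in turn: shCHAF1B-1 replicate 2, shCHAF1B-2 replicate 1 or 2, and shGFP replicate 1 or 3.

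Among the 6 checkpoint genes, 5 fell with both hairpins and MAD1L1 did not. TTK, the kinase (also called MPS1) that starts checkpoint signalling (chr6:80003887-80042527, plus strand), had 38.5, 40.5 and 38.8 CPM in shCHAF1B-1 and 44.0, 42.2 and 47.6 CPM in shCHAF1B-2, against 66.6, 64.9 and 71.4 CPM in shGFP. The highest knockdown library was far under the lowest shGFP library, and 61.9% of the shGFP level was left. Its log2 fold change was -0.79 with shCHAF1B-1 and -0.60 with shCHAF1B-2 (SE 0.0576 and 0.0574; adjusted p 9e-08 and 1.3e-06). MAD2L1, the protein MAD2 that binds and sequesters CDC20, had 58.6, 63.6 and 55.2 CPM in shCHAF1B-1 and 70.2, 65.9 and 74.1 CPM in shCHAF1B-2, against 95.2, 99.6 and 107 CPM in shGFP. It fell by 0.77 with shCHAF1B-1 and by 0.52 with shCHAF1B-2 on the log2 scale (adjusted p 3.6e-07 and 1.4e-05). BUB1, the kinase that marks centromeric histone H2A, had 70.5, 71.4 and 75.7 CPM in shCHAF1B-1 and 79.4, 75.1 and 81.9 CPM in shCHAF1B-2, against 103, 102 and 108 CPM in shGFP, and fell by 0.47 for the mean. BUB1B (BUBR1, a subunit of the mitotic checkpoint complex) fell by 0.54 and BUB3, the adaptor shared by both BUB kinases, by 0.18 (88.5% left). The gene BUB1B-PAK6, on the same strand, shares 10.2% of the exon bases of BUB1B. With shCHAF1B-2, BUB3 passed close to the threshold (adjusted p 0.0407 by edgeR).

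MAD1L1, which anchors MAD2 at unattached kinetochores and nuclear pores (chr7:1815793-2233243, minus strand), had 25.4, 24.0 and 22.3 CPM in shCHAF1B-1 and 19.3, 22.1 and 21.5 CPM in shCHAF1B-2, against 20.5, 21.6 and 17.3 CPM in shGFP. All 3 shCHAF1B-1 libraries were above shGFP and the shCHAF1B-2 libraries overlapped it. MAD1L1 rose with shCHAF1B-1 (0.27, adjusted p 0.0173) and did not pass with shCHAF1B-2 (0.08, adjusted p 0.453) or for the mean (0.18, SE 0.0765, adjusted p 0.0605). The shCHAF1B-1 call was lost without the first shCHAF1B-1 library (adjusted p 0.0616) or without the third shGFP library (adjusted p 0.0813), and the value for the mean passed without shCHAF1B-1 replicate 3 (0.21), shCHAF1B-2 replicate 1 (0.20) or shGFP replicate 2 (0.25).

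**Figure D4:**
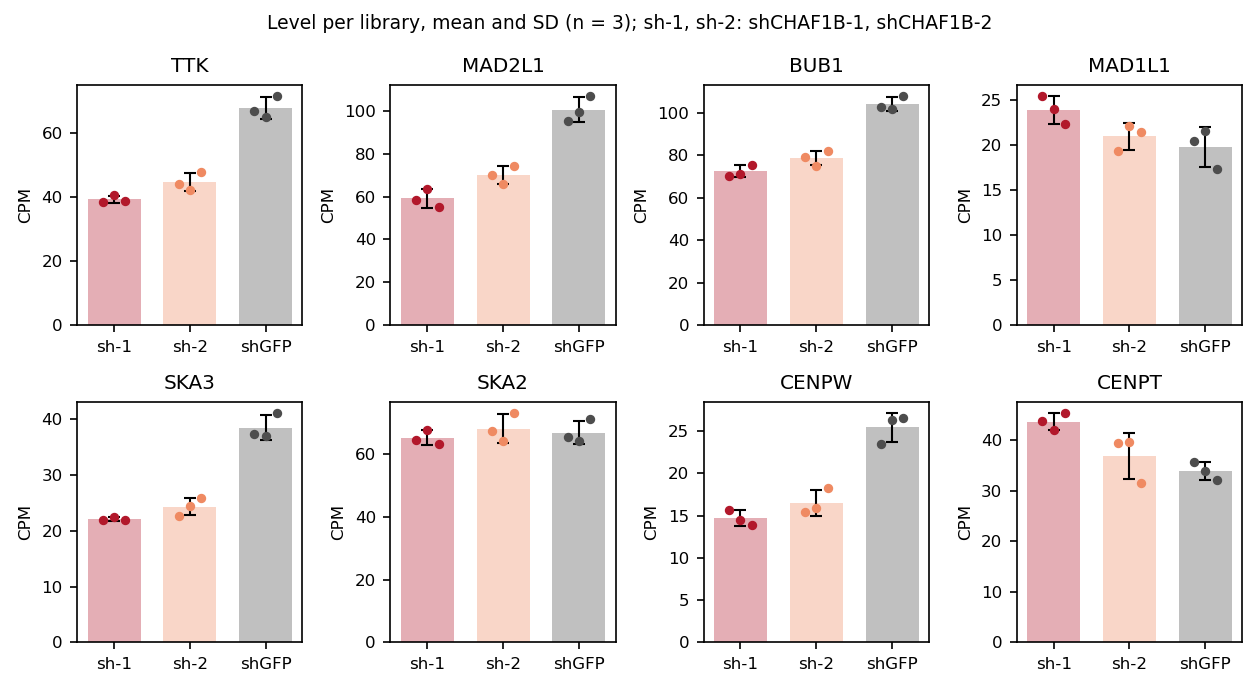
CPM in each of the 9 libraries for 8 genes (TTK, MAD2L1, BUB1, MAD1L1, SKA3, SKA2, CENPW and CENPT), with shCHAF1B-1, shCHAF1B-2 and shGFP from left to right and the group mean ± SD; TTK, MAD2L1, BUB1, SKA3 and CENPW are lower in all 6 knockdown libraries, SKA2 overlaps, and CENPT and MAD1L1 are above shGFP in the shCHAF1B-1 libraries.

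In the corona, CENPE, the kinesin that carries chromosomes toward the spindle equator, had 52.8, 59.9 and 69.1 CPM in shCHAF1B-1 and 65.6, 69.2 and 59.4 CPM in shCHAF1B-2, against 93.9, 83.7 and 97.8 CPM in shGFP. CENPF, a large coiled-coil protein that binds microtubules and dynein regulators, had 223, 238 and 252 CPM in shCHAF1B-1 and 239, 279 and 216 CPM in shCHAF1B-2, against 362, 339 and 354 CPM in shGFP. Both were lower in every knockdown library, with an SD of 8.16 CPM among the shCHAF1B-1 libraries for CENPE and of 32.2 CPM among the shCHAF1B-2 libraries for CENPF. The log2 fold change for the mean of both hairpins was -0.55 for CENPE (SE 0.0753, adjusted p 2.8e-05) and -0.54 for CENPF (SE 0.0661, adjusted p 9.4e-06). In the Mis18 complex, which primes centromeres for new CENP-A after mitosis, OIP5 (Mis18 beta) had 4.84, 4.36 and 4.02 CPM in shCHAF1B-1 and 3.78, 4.12 and 4.54 CPM in shCHAF1B-2, against 5.86, 6.13 and 6.31 CPM in shGFP. MIS18A had 11.8, 12.9 and 9.54 CPM in shCHAF1B-1 and 13.3, 12.2 and 12.9 CPM in shCHAF1B-2, against 16.7, 16.1 and 15.8 CPM in shGFP. Neither gene's groups overlapped, and both fell, by 0.51 for OIP5 and 0.42 for MIS18A on the log2 scale (adjusted p 3.5e-04 and 6.3e-04). The antisense transcript OIP5-AS1 shares 38.0% of OIP5's exon bases.

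The SKA complex, which couples kinetochores to depolymerising microtubules, was split. SKA3 (chr13:21153595-21176602, minus strand) had 21.9, 22.5 and 21.9 CPM in shCHAF1B-1 and 22.7, 24.4 and 25.8 CPM in shCHAF1B-2, against 37.3, 37.0 and 41.0 CPM in shGFP. It kept 60.3% of its shGFP level with a wide gap between groups, and its log2 fold change was -0.80 with shCHAF1B-1 and -0.66 with shCHAF1B-2 (adjusted p 2e-07 and 1.3e-06). SKA1 had 13.3, 12.5 and 12.9 CPM in shCHAF1B-1 and 14.1, 12.4 and 15.8 CPM in shCHAF1B-2, against 19.0, 20.9 and 21.5 CPM in shGFP, and fell by 0.61 for the mean. SKA2 (chr17:59109951-59155269, minus strand) had 64.6, 67.8 and 63.1 CPM in shCHAF1B-1 and 67.2, 64.0 and 73.0 CPM in shCHAF1B-2, against 65.5, 64.0 and 71.0 CPM in shGFP. Its groups overlapped throughout, and neither test passed (adjusted p 0.644 and 0.742).

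The log2 ratio between genes that act as partners was computed in each library for 17 pairs. The pairs and the order within them were chosen with the values known, in most pairs with the more reduced gene on top, so the choice largely fixes the direction and the ratios are a description with no test. All 6 knockdown libraries were below all 3 shGFP libraries for 11 pairs and overlapped them for 6; among single genes, 22.7% of those tested lay wholly below and 25.8% wholly above, so nothing is read from that count. The log2 ratio of CENPW to CENPT lay between -1.70 and -0.79 in the knockdown libraries, against -0.60 to -0.28 in shGFP. For MAD2L1 to MAD1L1 it lay between 1.21 and 1.87, against 2.21 to 2.63, and for SKA3 to SKA2 between -1.59 and -1.39, against -0.81 to -0.79. Within RZZ, KNTC1 to ZW10 lay between -0.28 and 0.07 in the knockdown libraries, against 0.42 to 0.50 in shGFP. The pairs with overlapping ranges were CENPK with CENPH, CENPQ with CENPU and SPC24 with SPC25. The others were DSN1 with NSL1, PMF1 with MIS12 and OIP5 with MIS18A. Across these 6 pairs the mean ratio differed from shGFP by between -0.19 and 0.02. For CENPK to CENPH no knockdown library lay within the shGFP range of -0.50 to -0.49. The log2 ratio was -0.75, -0.61 and -0.47 in shCHAF1B-1 and -0.34, -0.30 and -0.37 in shCHAF1B-2.

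**Figure D5:**
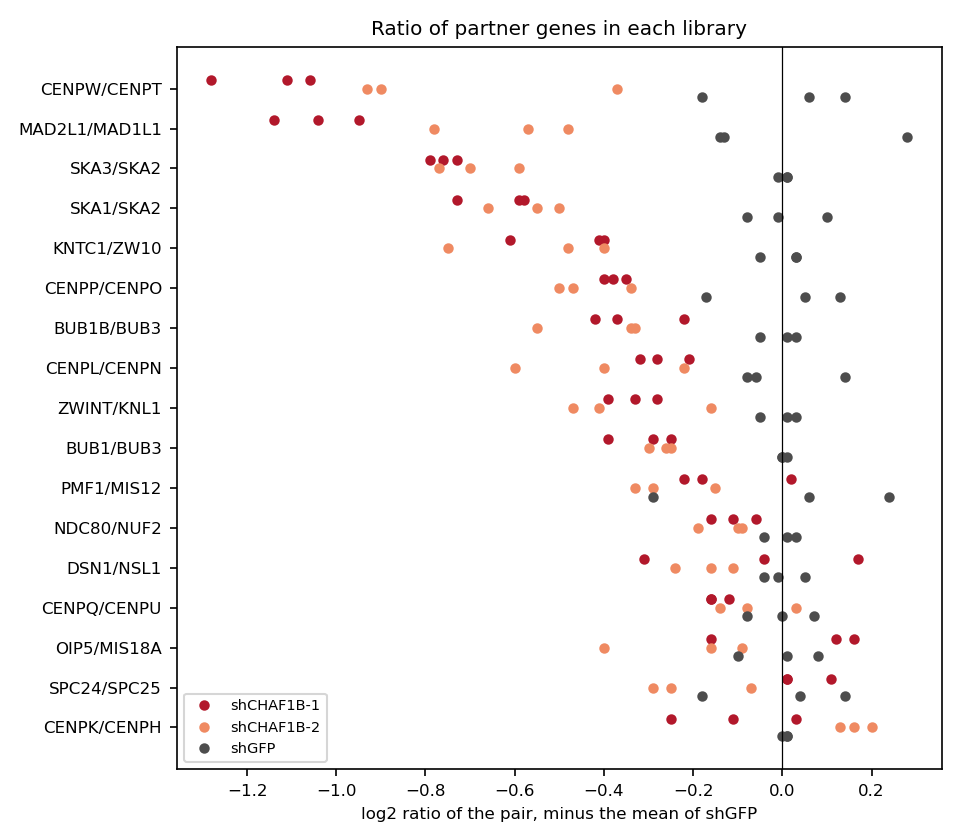
Log2 ratio of CPM between partner genes in each library, knockdown libraries beside shGFP, for 17 pairs; in 11 pairs, such as CENPW/CENPT and SKA3/SKA2, every knockdown library lies below every shGFP library.

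Divided by exon length, the level in shGFP libraries was highest for ZWINT at 39.4 ± 1.25 CPM per kilobase, followed by CENPW at 32.0 ± 2.11, CENPF at 30.1 ± 1.03 and BUB3 at 28.3 ± 0.929 (SD, n = 3). The mean ± SD ranges of CENPW and CENPF overlapped, and so did those of CENPF and BUB3. The lowest levels were those of CENPP at 1.09 ± 0.066, CENPC at 2.69 ± 0.292 and MAD1L1 at 2.74 ± 0.308 CPM per kilobase. ZWINT, CENPW, CENPF and BUB3 all fell with both hairpins, and the next gene in this order, SKA2 at 21.2 ± 1.17, did not. Among the lowest, CENPP and CENPC fell with both hairpins and MAD1L1 did not. Of the 25 members with no exon overlap with another gene, 23 fell and 0 rose for the mean of both hairpins (median -0.46); of the 14 with some overlap, 9 fell and 2 rose.

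The test of shCHAF1B-2 against shCHAF1B-1 called 0 of 39 members and 0 of 16235 genes (0.00%) by edgeR, and 0 by DESeq2 and by limma-voom. At an unadjusted p under 0.05, edgeR gave 10 members (25.6%) and 1800 of all tested genes (11.1%). DESeq2 gave 7 members (17.9%) and 1238 genes (7.63%), and limma-voom 10 members (25.6%) and 1705 genes (10.5%). In order of edgeR p, the difference, shCHAF1B-2 minus shCHAF1B-1, was 0.24 for MAD2L1 (95% interval 0.10 to 0.38) and 0.30 for CENPK (0.12 to 0.47). Next were TTK at 0.18 (0.06 to 0.31) and CENPT at -0.24 (-0.41 to -0.08). Of the 10 members that edgeR gave, 9 had a positive difference. None passed adjustment (lowest adjusted p among members 0.423).

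Other genes of the pathway were read against all tested genes, of which 27.7% fell and 29.2% rose for the mean of both hairpins. Of 25 other centromere and kinetochore genes, 19 fell (76.0%) and 2 rose, with a median of -0.46, and CENPB, CENPS, HJURP and CLASP2 did not pass. The ATPase TRIP13, which remodels MAD2, was at -1.12, the chromosomal passenger BIRC5 (survivin) at -0.95, the checkpoint target CDC20 at -0.83 and the kinase PLK1 at -0.72 (adjusted p 4.7e-10, 7.9e-10, 3.5e-09 and 1.6e-08). CENPA, the centromeric histone, fell by 0.57, whereas its chaperone HJURP was at -0.06 (adjusted p 0.328). The 2 that rose were MAD2L1BP (0.17), which works with TRIP13, and the microtubule end protein MAPRE1 (0.24). Of 17 genes of the anaphase-promoting complex and its E2 enzymes, 6 fell (35.3%) and 5 rose, with a median of -0.13, so their shares were near those of all tested genes. The E2 enzyme UBE2C was at -0.65, the subunit ANAPC5 was at -0.19, and the subunits that rose were ANAPC7 (0.18), ANAPC16 (0.29), CDC16 (0.25), CDC23 (0.14) and CDC27 (0.10). Without the second shGFP library 3 of these genes fell and 3 rose, and without the first shGFP library 2 rose.

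Of 24 cell cycle reference genes, 20 fell (83.3%, against 27.7% of all tested genes) and 1 rose (29.2% of all tested genes), with a median of -0.46, and PCNA, LIN37 and E2F4 did not pass. CCNB2 (cyclin B2) was at -1.11, and the replicative helicase genes MCM2, MCM5 and MCM3 at -0.75, -0.74 and -0.62, while the proliferation marker MKI67 was at -0.40 and PCNA at 0.08 (adjusted p 0.208). CDKN1A, the cell cycle inhibitor p21, rose by 0.64: it had 860, 796 and 757 CPM in shCHAF1B-1 and 736, 743 and 794 CPM in shCHAF1B-2, against 488, 534 and 480 CPM in shGFP. The part of a changed share of dividing cells in the fall of the kinetochore genes was not tested.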

How the data were processed

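Polyadenylated RNA of 9 MCF10A libraries was measured by RNA-seq; the labels name the TruSeq RNA kit, version 2, which does not mark strand. The deposited table holds raw counts that the authors had not normalized, as whole numbers. Tools named in the submitters' processing notes are STAR 2.5.3a, HTSeq 0.8.0 and DESeq2 1.18.1; builds named there are hg38 and mm10, neither tied to a step. Symbols, exons and positions came from GENCODE release 29 on GRCh38 (26149 of 26186 identifiers matched), promoters from RefSeq.

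Genes passed filterByExpr (minimum count 10, minimum total 15, proportion 0.7), were scaled by TMM and tested in edgeR 4.0.16 (R 4.3.3, quasi-likelihood) in 1 fit of all 9 libraries with group as the only term (biological coefficient of variation 6.24%), with Benjamini-Hochberg adjustment over 16235 genes. CPM are TMM-scaled; the median of members has no test. Each library counted as 1 replicate: all pairs within a group differed beyond counting noise, so none looked like a library deposited again, which does not show that they came from separate cultures. Depth was 24339914 to 31819468 counts per library; precision from counts covers counting error only. Alternatives were RLE and upper-quartile scaling, DESeq2 1.42.0, limma-voom (limma 3.58.1), other filters, thresholds and sample sets, a replicate block, leaving out each library, and removing genes that hold any of 3 short sequences picked in an earlier analysis of the same data. All members may be named; per-library values are given for CHAF1B and, per complex, for the members with the lowest and highest log2 fold change for the mean of both hairpins. Fold changes are given for up to 4 genes of each neighbouring list by smallest adjusted p and those behind a count of 5 or fewer. Per-library values of CENPW, CENPN, BUB1, MAD2L1, SKA1, CDKN1A and CHAF1A and fold changes of CENPA and MKI67 were added after their values were seen. The members and lists were chosen with earlier results of these data known. Ratios between partners were taken from CPM on a log2 scale.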

Additional observations from a re-analysis of the deposited data

How the results depend on the processing

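Of 737 values of single members under the alternatives, 686 kept their direction and side of the threshold, 37 lost the call (26 of them under a 1.5-fold minimum), 3 gained one and 11 changed sign. All 11 belong to members near 0: PMF1 was at -0.02 with upper-quartile scaling, at -4.8e-06 with a 1 CPM filter and between -0.09 and 0.09 on leaving out each library, CENPN between -0.08 and 0.04, and SKA2 between -0.04 and 0.04. Leaving out 1 library gave 30 to 32 members fallen for shCHAF1B-1, 25 to 29 for shCHAF1B-2, 25 to 28 for both and 30 to 32 for the mean; 1 to 2 rose with shCHAF1B-2 and 0 to 2 with both. A 1.5-fold minimum left 10, 5, 8 and 5 members fallen for shCHAF1B-1, shCHAF1B-2, the mean and both, and 0 risen in each. Risen with shCHAF1B-1 was 1 without genes holding the short sequences, 1 at an adjusted p under 0.01 and 1 among members with no exon overlap, where 0 rose with shCHAF1B-2 and 0 for the mean. Fewer genes and a stricter threshold account for these counts by construction. The median was -0.53 for shCHAF1B-1 among members with no exon overlap and -0.38 for shCHAF1B-2 with upper-quartile scaling, where the median of all genes was -0.045, beside -0.014 with TMM; the cause was not tested.

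The 1.5-fold minimum left 10 other centromere genes, 1 gene of the anaphase-promoting complex list and 7 cell cycle genes fallen, and 0 risen in the centromere and anaphase-promoting lists. At an adjusted p under 0.01, 1 other centromere gene rose, and 3 of the anaphase-promoting list fell and 3 rose; leaving out each library gave 3 to 7 fallen and 2 to 5 risen there. A replicate block gave 32, 29 and 32 members fallen for shCHAF1B-1, shCHAF1B-2 and the mean, and 29 fallen and 1 risen in both. The replicate numbers do not pair the libraries: correlations between same-numbered libraries ran from -0.138 to 0.1, and the first shCHAF1B-1 library correlated best with the second shGFP library (0.22). Depth was lowest for OIP5 and CENPP, at 3.78 to 11.1 CPM, with standard errors of 0.0939 and 0.0782 on the log2 scale; the well covered CENPE and CENPF had 0.0753 and 0.0661, so spread between libraries limits precision too.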

Other observations

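The difference between the hairpins had the same sign for most of the list, although no gene passed the test between them. The difference, shCHAF1B-2 minus shCHAF1B-1, was positive for 33 of 39 members (84.6%), against 48.5% of all tested genes, with a median of 0.09 against -0.01. CHAF1B itself was left at 8.82% of its shGFP level with shCHAF1B-1 and 8.54% with shCHAF1B-2. The median log2 ratio of the members to their shGFP mean was -0.50, -0.39 and -0.42 in the shCHAF1B-1 libraries. It was -0.35, -0.40 and -0.33 in the shCHAF1B-2 libraries, so the library medians of the hairpins overlapped. Members share regulation and are not independent of each other, so the count of positive differences is a description.

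CHAF1A, the large subunit of CAF-1, which the hairpins do not target, had 35.5, 34.3 and 34.2 CPM in shCHAF1B-1 and 33.0, 32.5 and 33.9 CPM in shCHAF1B-2, against 50.6, 52.3 and 50.8 CPM in shGFP (log2 fold change -0.60 for the mean of both hairpins, SE 0.0406, adjusted p 3.2e-08 by edgeR), a drop close in size to those of ZWINT and SKA1 at -0.61.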
